A study of Mus musculus with 158 samples.

Results

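The accessibility of chromatin was examined at 10 cytochrome P450 genes, of 21755 protein-coding genes on the autosomes and chromosome X: Cyp1a2, Cyp2c29, Cyp2e1, Cyp3a11, Cyp4a10, Cyp4a14, Cyp7a1 and Cyp8b1 as genes of liver, and Cyp2f2 and Cyp4b1 as genes of lung. They were chosen by name, with no threshold on a measured value but with earlier results of these data known. Each was given a window of the annotated gene body and 10 kb on each side. DNase-seq cuts open chromatin with the enzyme DNase I, and a hotspot is a stretch of the mm10 genome where cleavage stood above its surroundings at a false discovery rate of 5%.

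The mice were F1 hybrids of C57BL/6J (B6), aged 8 weeks. The crosses were B6x129 (its other parent is given in full with the processing), B6xC3H with C3H/HeJ, B6xCAST with CAST/EiJ, B6xPWK with PWK/PhJ and B6xSPRET with SPRET/EiJ, and wherever 5 values follow each other they keep this order. Every animal carried a B6 genome, the first 2 crosses joining it with a classical laboratory strain and the other 3 with a wild-derived strain or species. Whole liver, kidney and lung, and purified B cells of the femoral marrow, gave 138 DNase-seq libraries. They were pooled into 1 hotspot set for each hybrid and tissue, or 20 adult sets. For most sets the paper counts fewer biological replicates than there are libraries, so the libraries include repeats of a sample. RNA-seq covered 17 libraries of the same 4 tissues, all from B6xC3H, B6xPWK and B6xSPRET except 1 B cell library labelled B6xCAST. Liver, kidney and lung of B6xCAST, and every tissue of B6x129, thus had no RNA library here. A further 2 sets came from B6xCAST mouse embryonic stem cells (mESC), 1 of DNase-seq and 1 of ChIP-seq for the insulator protein CTCF.

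P450 enzymes sit in the endoplasmic reticulum and oxidise lipids, hormones and foreign compounds with electrons that P450 oxidoreductase passes on from NADPH. Hepatocytes use them to clear drugs, to hydroxylate fatty acids and to turn cholesterol into bile acids. The club cells of the airway hold a smaller set of P450 enzymes, which activate inhaled compounds such as naphthalene.

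The sequences before 4 starts are shown because the results turn on these promoters. RefSeq (GRCm38.p6) listed a promoter for 7 of the 10 genes, all but Cyp4a10, Cyp4a14 and Cyp7a1. The lines give 150 bases, 5′ to 3′ on the strand of the gene, with matches in capitals: TATAAA is the TATA box, CAAAGTCCA a motif of the liver factor HNF4A and TGCCAA (the reverse complement of TTGGCA) the core of an NFI site.
Cyp2e1 at chr7:140763669-140763818, plus strand: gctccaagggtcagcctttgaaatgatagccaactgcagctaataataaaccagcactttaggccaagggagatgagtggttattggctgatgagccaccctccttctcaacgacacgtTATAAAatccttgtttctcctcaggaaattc
Cyp3a11 at chr5:145879855-145880004, minus strand: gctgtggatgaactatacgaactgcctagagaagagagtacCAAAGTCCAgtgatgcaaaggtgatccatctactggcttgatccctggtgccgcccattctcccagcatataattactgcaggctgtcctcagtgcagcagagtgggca
Cyp8b1 at chr9:121916306-121916455, minus strand: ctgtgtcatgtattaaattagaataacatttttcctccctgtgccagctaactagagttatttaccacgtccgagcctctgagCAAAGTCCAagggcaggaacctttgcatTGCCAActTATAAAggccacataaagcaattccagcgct
Cyp2c29 at chr19:39286935-39287084, plus strand: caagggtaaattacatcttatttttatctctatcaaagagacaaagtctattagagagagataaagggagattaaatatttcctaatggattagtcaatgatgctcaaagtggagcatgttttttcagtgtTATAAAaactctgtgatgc

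Motif letters were searched on both strands of the whole 300-base promoters, from 250 bases before to 50 after the RefSeq start. TATAAA was found in 5 of the 7 promoters and in 14.2% of all 26794 promoters. In Cyp3a11 it lay at base -234 from the RefSeq start, outside the stretch printed above. CAAAGTCCA, which is the same search as TGGACTTTG on the other strand, was found in 2, Cyp3a11 and Cyp8b1, against 0.478% of all promoters. TGTTTAC (FOXA) occurred in Cyp3a11, against 3.56%. CAAGTG, the core bound by the lung factor NKX2-1 and also an E-box, occurred in 3, Cyp1a2, Cyp8b1 and Cyp2f2, against 13.5%, so it was not limited to lung genes. TTGGCA occurred in 2 (14.3% of all promoters) and TGANTCA (AP-1) in Cyp4b1 (7.91%). No match was found for GTTAATNAT (HNF1), TTGCNNAA (CEBP), TTATGTAA (PAR bZIP), TTGCGTG (AHR) or TGACCTTTG (part of a PPAR element).

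Upstream of Cyp2f2 lay 2 regions that were hotspots in all 5 lung sets and in no other adult set. The 300 bases at the centre of each are shown because they set lung apart from liver at a gene open in both.
Cyp2f2 lung region 1 at chr7:27111112-27111411, plus strand: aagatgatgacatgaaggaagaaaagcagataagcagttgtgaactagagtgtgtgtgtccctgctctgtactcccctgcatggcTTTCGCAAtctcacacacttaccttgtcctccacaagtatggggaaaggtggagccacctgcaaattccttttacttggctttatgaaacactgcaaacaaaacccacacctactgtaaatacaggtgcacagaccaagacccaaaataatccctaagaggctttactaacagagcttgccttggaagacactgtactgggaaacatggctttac
Cyp2f2 lung region 2 at chr7:27112064-27112363, plus strand: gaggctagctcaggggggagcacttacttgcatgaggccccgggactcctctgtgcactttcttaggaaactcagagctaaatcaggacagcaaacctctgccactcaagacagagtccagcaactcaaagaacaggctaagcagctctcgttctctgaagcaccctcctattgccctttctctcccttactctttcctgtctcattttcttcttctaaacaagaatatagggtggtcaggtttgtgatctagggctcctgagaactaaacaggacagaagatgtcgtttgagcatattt

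The letters in capitals match TTGCNNAA on the minus strand, a CEBP pattern. It was held by 18.9% of the 7123 lung-only regions in the windows of all protein-coding genes, cut to the same length. The other motifs had no match in either sequence, and CAAGTG was present in 31.1% of the lung-only regions.

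Liver sets held 211762 to 295565 hotspots, kidney sets 186061 to 238917, lung sets 152006 to 281978 and B cell sets 78387 to 156078. They spanned 2.98 to 4.89% of the autosomes and chromosome X in liver but 1.10 to 2.61% in B cells, so coverage was also compared after division by this share. Analysed reads, which the paper lists for each set, differed between tissues too and were not used in any comparison. A hotspot lay at the start of all 8 liver markers in all 5 liver sets, of 6 of 8 kidney markers in kidney, of 8 of 8 lung markers in lung and of 8 of 8 B cell markers in B cells. In lung, 5 of 8 B cell markers had one in all 5 sets too. By the test of window coverage used below, 8 liver, 4 kidney, 4 lung and 7 B cell markers were called higher in their own tissue. In liver, 2 lung markers and 1 kidney marker were also called higher, and in lung 1 kidney marker. Starts of macrophage markers were open in every liver set for 5 of 6 genes, beside 55.7% of all genes, and 1 of the 6 windows was covered more in liver than elsewhere. Their part in the liver results was not tested. In whole tissue, fewer cells of a type and less signal per cell cannot be told apart.

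Of the 10 windows, 9 were covered more by liver hotspots than by those of the other tissues, with Cyp4b1 the exception. In each of the 9, all 5 liver sets lay above all 15 other sets, a pattern of 13.6% of all protein-coding genes. The adjusted p was 0.00049 for each of the 9 (exact permutation test of 5 sets against 15, two-sided, Benjamini-Hochberg over all genes), with 6.45e-05 the smallest raw p that this design allows. The background was large, since 33.9% of all genes were called higher in liver. It fell to 15.3% when coverage was divided by the share of the genome covered in the same set, and the same 9 genes were called (adjusted p = 0.000742). The median difference was 28.2 percentage points over the 10 windows and 0.89 over all genes.

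**Figure D1:**
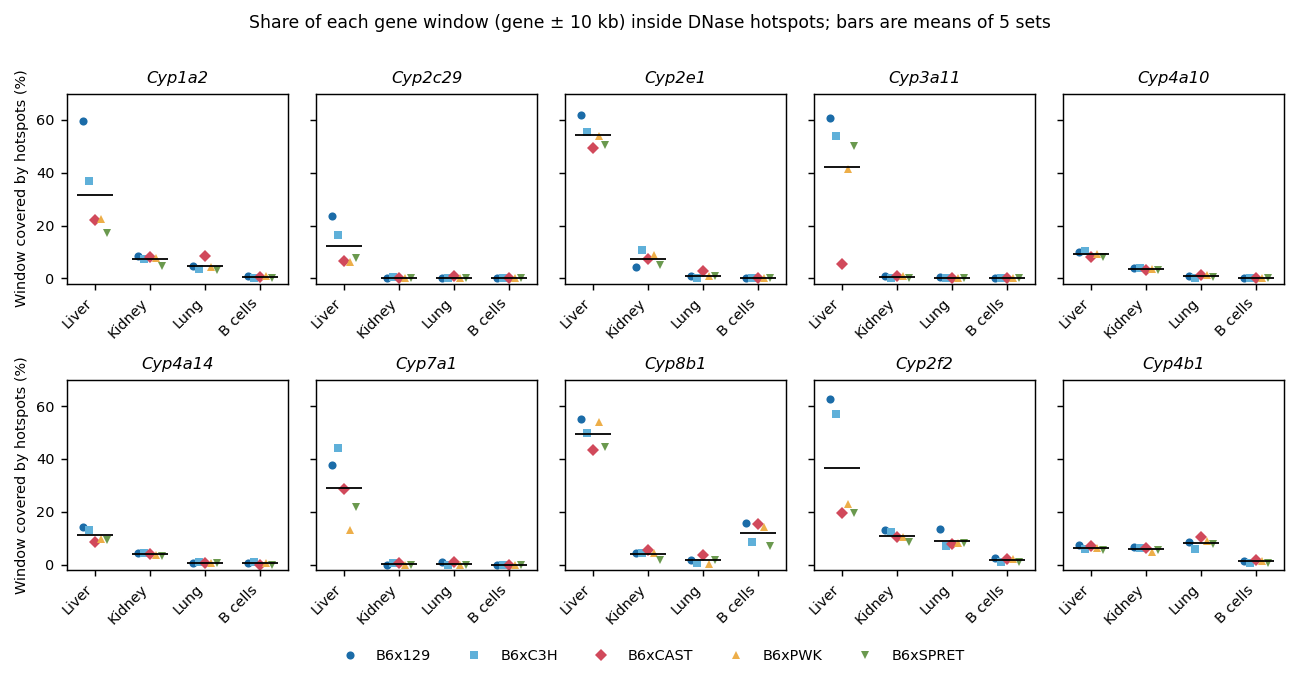
Share of each gene window inside DNase hotspots, in percent, for the 10 P450 genes. Each point is 1 pooled set, coloured by hybrid, and bars are means of 5 sets. Liver lies above the other tissues for every gene but Cyp4b1, and Cyp3a11 in B6xCAST liver lies at 5.59%.

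Among the liver genes, 4 metabolise foreign compounds. Cyp1a2 (ENSMUSG00000032310.4, chromosome 9, 57676937 to 57683703, reverse strand) oxidises caffeine and aromatic amines. Its window was covered for 59.4, 37.0, 22.2, 22.5 and 17.3% in the 5 liver sets. Kidney sets held 4.58 to 8.45%, lung sets 3.10 to 8.38% and B cell sets at most 0.77%. Kidney and lung overlapped, and no liver set came near either. The window also holds Cyp1a1, a neighbour induced by the same aromatic compounds, whose own window was covered for 11.9 to 37.6% in liver.

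Cyp2e1 (ENSMUSG00000025479.9, chromosome 7, 140763739 to 140774987, forward strand) oxidises ethanol and acetaminophen and had the highest mean coverage in liver. Liver hotspots took up 61.9, 55.3, 49.2, 53.9 and 50.5% of its window, or 54.2% ± 4.96 (SD, n = 5). Within the gene body the share was 87.2 to 100%. Kidney sets held 4.37 to 10.6%, lung sets 0 to 2.71% and B cell sets 0 to 0.30%. Kidney and lung did not overlap, with an unadjusted exact permutation p of 0.00794, the smallest that 5 sets against 5 can give, and an adjusted p of 0.0515. No gene of the genome passed the adjusted threshold between kidney and lung, although by the same test 22.8% had an unadjusted p under 0.05 with kidney higher and 7.51% with kidney lower. Cyp4a10 and Cyp4a14 were the other members whose kidney and lung ranges stood apart.

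Cyp3a11 (ENSMUSG00000056035.8, chromosome 5, 145854426 to 145879964, reverse strand) encodes the main CYP3A enzyme of mouse liver. Liver sets covered 60.7, 53.9, 5.59, 41.3 and 50.1% of its window. The B6xCAST set stood far below the other 4 and was still above the highest set of any other tissue, 1.01%. No B cell set had a hotspot anywhere in the window.

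Cyp2c29 (ENSMUSG00000003053.17, chromosome 19, 39269405 to 39330713, forward strand) epoxidises arachidonic acid and is induced by phenobarbital. Its liver coverage was 23.7, 16.5, 6.56, 6.25 and 7.79%, against at most 0.69% in any set of the other tissues. No liver set overlapped them. The 10 kb before the annotated start had no hotspot in any adult set, and of the liver sets B6x129 alone had coverage after the gene end, of 2.3% of those 10 kb.

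Cyp4a10 (ENSMUSG00000066072.13, chromosome 4, 115518264 to 115533649, forward strand) and Cyp4a14 (ENSMUSG00000028715.2, chromosome 4, 115486200 to 115496142, reverse strand) hydroxylate the end of fatty acid chains and are targets of the lipid sensor PPARA. Cyp4a10 was covered for 10.1, 10.4, 8.08, 9.13 and 8.16% in liver. Kidney followed with 3.11 to 4.05%, then lung with 0.26 to 1.25%, and all 5 B cell sets were at 0. The 4 ranges did not overlap. Cyp4a14 had the same order for liver and kidney. Its liver sets held 14.4, 12.9, 8.71, 9.76 and 9.44%, and its kidney sets 3.39 to 4.52%. Lung and B cells overlapped at 1.10% or less.

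The liver genes of bile acid synthesis are Cyp7a1 (ENSMUSG00000028240.2, chromosome 4, 6265612 to 6275633, reverse strand), the rate-limiting enzyme, and Cyp8b1 (ENSMUSG00000050445.4, chromosome 9, 121914356 to 121916305, reverse strand), which directs synthesis towards cholic acid. Cyp7a1 was covered for 37.8, 44.2, 28.5, 13.01 and 21.9% in liver. No set of another tissue passed 1.11%. Cyp8b1 was covered for 55.3, 49.97, 43.4, 54.0 and 44.7%, and its short gene body for 85.7 to 100%. Its B cell sets came next with 7.12 to 15.6%, above all lung and kidney sets, but none of those hotspots touched the gene body. The window reaches into Ackr2, which encodes a decoy receptor for chemokines.

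Cyp2f2 (ENSMUSG00000052974.8, chromosome 7, 27119909 to 27133660, forward strand) activates naphthalene in club cells. Its window was covered most in liver, for 62.9, 57.1, 19.5, 23.0 and 19.6%. Lung sets held 13.3, 6.98, 7.83, 8.09 and 8.32%, and kidney sets 8.51 to 13.04%. All liver sets lay above them. Lung and kidney overlapped (adjusted p = 0.38, exact permutation test), and both lay above B cells at 0.79 to 2.46%.

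The shares of upstream sequence and gene body in hotspots at Cyp2f2 differed between lung and kidney. In lung, 18.3 to 29.5% of the 10 kb upstream and 3.9 to 10.4% of the gene body lay in hotspots. In kidney the upstream share was 5.5 to 10.4% and the gene body share 16.9 to 24.5%. Neither range overlapped between the 2 organs, although the start was open in 5 lung and 4 kidney sets and 244 bp within the gene in all 5 of each. The split into upstream and gene body was not tested, and the share of all genes with such separate ranges was not counted. The 2 lung-only regions, at chr7:27111060-27111465 and chr7:27112050-27112378, lay 8.6 and 7.7 kb before the start, and no other lung-only region was found in the 10 windows. That made 2 of the 159 merged regions of the 10 windows, near the 1.58% with this pattern over the windows of all protein-coding genes. The bases shared by all 5 lung sets and no other set came to 643 bp of the Cyp2f2 window (1.91%), more than in 99.2% of genes.

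**Figure D2:**
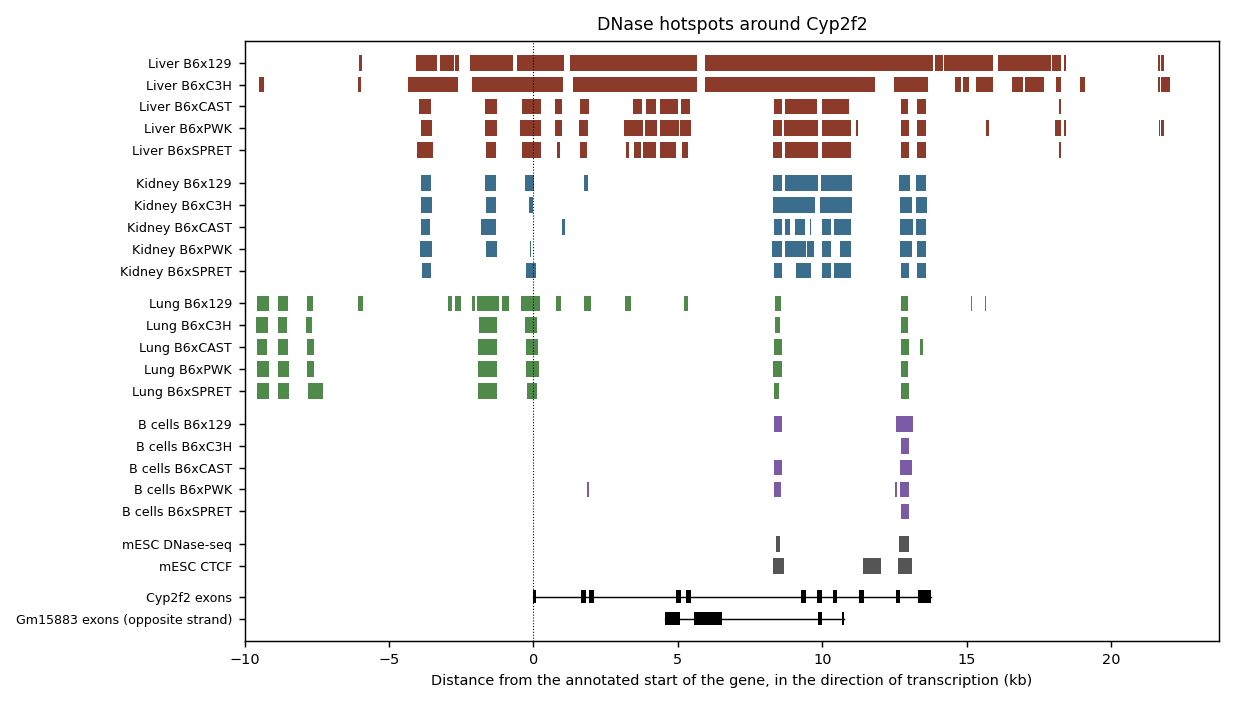
Hotspots around Cyp2f2 by distance from its start, in kb along the direction of transcription. Each row is 1 set, black boxes are exons, and Gm15883 lies on the opposite strand. Lung rows have hotspots near 8.6 and 7.7 kb upstream that no other adult row has.

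Cyp4b1 (ENSMUSG00000028713.17, chromosome 4, 115624725 to 115647723, reverse strand) activates ipomeanol and other inhaled protoxins. It was covered for 8.62, 5.80, 10.5, 8.77 and 7.90% in lung. Liver sets held 5.60 to 7.30% and kidney sets 4.73 to 6.50%, so all 3 organs overlapped. The lung difference was 3.86 percentage points (exact permutation p = 0.00439, adjusted p = 0.104), and none of the 10 genes was called higher in lung, where 1.82% of all genes were. After division by the share of the genome covered, Cyp4b1 was called higher in lung (adjusted p = 0.00203), where 7.48% of genes were. It was lower in B cells than elsewhere (adjusted p = 0.00132), as was Cyp4a10 (adjusted p = 0.0433), and these 2 of 10 compare with 22.6% of all genes called lower in B cells. The Cyp4a10 call in B cells was lost when any 1 hybrid was left out (adjusted p 0.0867 to 0.097, exact permutation test) and when sets were exchanged within hybrids only (adjusted p = 0.08). None of the 10 was called higher in kidney (7.26% of all genes), and by the same permutation test none had an unadjusted p under 0.05 there. No member was called lower in liver, kidney or lung, or higher in B cells, where 1.45%, 0.547%, 0.257% and 4.92% of all genes were; at an unadjusted p under 0.05 2 had lower coverage of lung (Cyp4a14 and Cyp8b1) and the other 3 counts were 0. Without the B cell sets, Cyp4a10 and Cyp4a14 were called lower in lung (adjusted p = 0.0267 and 0.0389).

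Pairs of tissues were compared by the same test of 5 sets against 5, in which p = 0.00794 is the smallest value. Liver was higher than kidney for 9 of 10 genes (adjusted p = 0.0275) and than lung for 9 (0.0295), and Cyp4b1 was called in neither. Of all genes, 26.6% were higher and 8.26% lower in liver than in kidney, and 28.5% and 3.91% relative to lung. Against B cells, all 10 were higher in liver (adjusted p = 0.0203), as were 41.4% of genes, while 2.79% were lower. Kidney lay above B cells for 6 (Cyp1a2, Cyp2e1, Cyp4a10, Cyp4a14, Cyp2f2 and Cyp4b1; adjusted p = 0.0237; 33.9% of genes) and below them for Cyp8b1 (4.64%). Lung lay above B cells for 4 (Cyp1a2, Cyp4a10, Cyp2f2 and Cyp4b1; adjusted p = 0.0499; 14.4%) and below them for Cyp8b1 (1.56%).

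A hotspot within 250 bp of the annotated start was found in all 5 liver sets for 9 of the 10 genes, against 55.7% of all protein-coding genes. In kidney the count was 5 (Cyp2e1, Cyp4a10, Cyp4a14, Cyp8b1 and Cyp4b1; background 59.1%), in lung 2 (Cyp2f2 and Cyp4b1; 56.6%) and in B cells 0 (48.1%). The mESC DNase-seq set had none at any of the 10 starts, although 61.1% of all starts had one there. Elsewhere in the windows it covered at most 2.71% (Cyp8b1), and 5 windows had no hotspot of it. The only kidney hotspot at the start of Cyp3a11 was one of 213 bp in B6xCAST. Cyp1a2 and Cyp7a1 starts were open in all 5 liver sets and no other adult set, as for 0.676% of genes. Starts of Cyp4a10, Cyp4a14 and Cyp8b1 were open in all liver and kidney sets and in none of lung or B cells, as for 0.648% of genes.

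The start of Cyp8b1 carried hotspots of 3986, 3916, 1607, 2289 and 619 bp in liver and of 139 to 459 bp in kidney. At Cyp2f2 the 5 liver hotspots spanned 649 to 3149 bp and the lung hotspots 360 to 656 bp. Lung hotspots at Cyp4b1, of 375 to 567 bp, were close in width to those of kidney (341 to 443 bp) and liver (282 to 372 bp). The TATA box and HNF4A letters printed for Cyp8b1 lie upstream of its RefSeq start, which is the annotated start.

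Cyp2c29 was the gene without a hotspot at its annotated start. None of the 36-base sequences within 250 bp of that start occurs only once in the genome, and the reads had to map uniquely. Its RefSeq start lies 17680 bp downstream, at the promoter printed above, and had a hotspot in all 5 liver sets and in none of the other tissues. Whether reads were lost there was not tested. At Cyp4a10, a gap of 13 bp on chromosome 4, between hotspots that ended at 115518300 and began at 115518314, had the same edges in all 10 liver and kidney sets, and 4 of the 48 sequences over the gap were unique. Across the whole windows the unique share ran from 64.1% at Cyp4a10, 69.5% at Cyp3a11 and 70.5% at Cyp2c29 to 97.3% at Cyp8b1.

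Hotspots of 3 kb or more were seen in at least 1 liver set for 7 of the 10 genes, against 14.1% of all genes, and in no set of the other tissues. Cyp2e1 had one in all 5 liver sets, a pattern of 0.538% of genes, with widest hotspots of 10210, 9849, 3216, 9826 and 8829 bp. Cyp3a11 and Cyp8b1 had one in 3 liver sets, Cyp2c29 and Cyp2f2 in 2, and Cyp1a2 and Cyp7a1 in 1. Cyp4a10, Cyp4a14 and Cyp4b1 had none. Bases in all 5 liver sets and in no other set made up 36.3% of the Cyp2e1 window, 26.3% of that of Cyp8b1, 10.5% of Cyp1a2 and 9.79% of Cyp7a1, where the median gene had 0.23%.

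**Figure D3:**
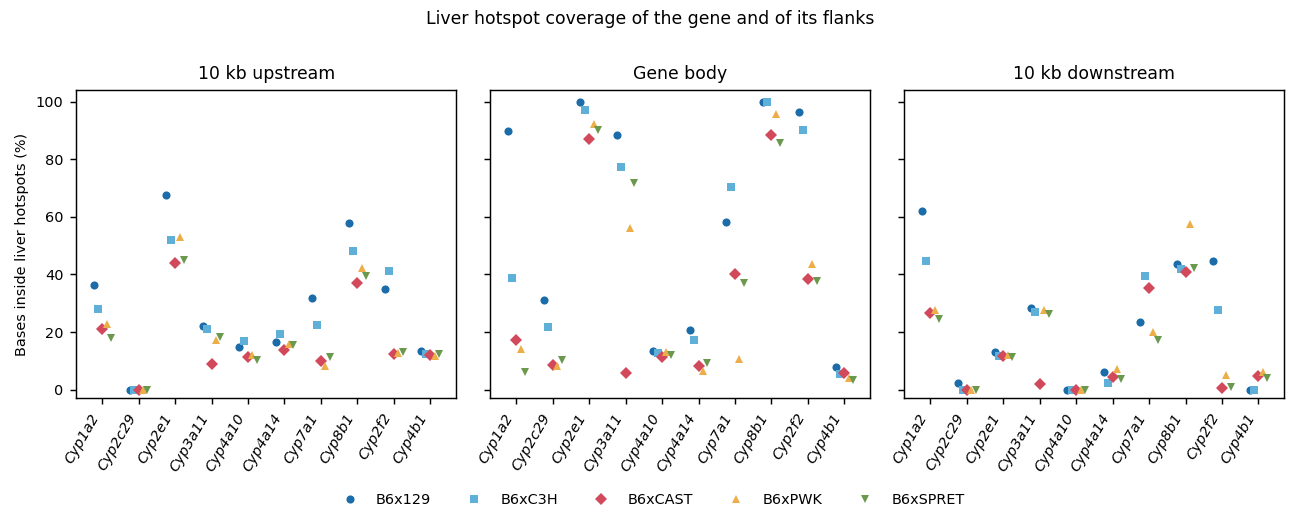
Percent of bases inside liver hotspots for the 10 kb upstream, the gene body and the 10 kb downstream of each gene. Points are the 5 liver sets, coloured by hybrid. Gene bodies of Cyp2e1 and Cyp8b1 are covered for over 85% in every hybrid, while those of Cyp1a2, Cyp3a11, Cyp7a1 and Cyp2f2 range widely.

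Merging all hotspots that overlapped gave 159 regions in the 10 windows, of which 45 lay in introns, 42 upstream, 37 downstream and 25 on exons, with 10 at the starts. Of these, 18 were hotspots in all 5 liver sets and in no other adult set, with at least 1 in every window. Over the windows of all protein-coding genes, 3.48% of merged regions had this pattern. Cyp7a1 had the most with 4, including its start, at chr4:6274725-6276640. A hotspot in 1 of the 20 sets was all that supported 54 regions, near the 36.1% over the windows of all protein-coding genes. Open in all 20 sets were 244 bp within Cyp2f2, 12.9 kb after its start, and 130 bp at -9.82 kb from the start of Cyp4b1. The first lay in a merged region of 7877 bp that also held 3 mESC CTCF and 2 mESC DNase-seq hotspots. Whether these overlap the 244 bp was not examined.

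Hybrids differed within liver. B6x129 and B6xC3H both lay above the other 3 hybrids for 8 of the 10 genes, and this held for 49.6% of all genes and for 63.2% of those with a mean liver coverage of at least 5%. Their liver hotspots covered 128.8 and 98.6 Mb in all, against 78.4 to 92.5 Mb in the other 3. At Cyp2f2 the step was from 57.1% or more to 23.0% or less. By the paper, the B6x129 and B6xC3H mice were females bought from a supplier, and the other 3 hybrids were bred at the authors' centre. For these 3 the sex is given for marrow only. Parent strain, source and sex therefore cannot be told apart in this split. The paper's counts of analysed reads also differed between the liver sets, with the most for B6x129, and their part was not tested. With the tissue kept fixed and hybrid labels exchanged, no gene was called in any hybrid after adjustment (exact permutation test). At an unadjusted p under 0.05, 4 of the 10 genes passed: Cyp1a2 (9.09 percentage points higher) and Cyp2f2 (10.56 higher) in B6x129, Cyp4b1 (1.19 higher) in B6xCAST and Cyp8b1 (a difference of -3.67) in B6xSPRET. In the order of hybrids given above, 20.3, 6.14, 10.9, 1.17 and 16.2% of all genes did so. The 9 liver calls were also made without B6x129 and B6xC3H (adjusted p = 0.0318), where 13.7% of genes were called.

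Cyp3a11 in B6xCAST liver was the widest gap. Its coverage was 45.9 percentage points below the mean of the other 4 liver sets, the lowest such difference of all 21755 genes. Within liver there is 1 set a hybrid and so no replicate, and the gap to the next set was 0.649 of the range, under Dixon's limit of 0.71. Over all 4 tissues the B6xCAST difference at Cyp3a11 was -11.43 percentage points (exact permutation p = 0.104). That p cannot judge the gap, since no set outside liver covered more than 1.01% and the test turns on 1 liver set. The start kept a hotspot of 481 bp in B6xCAST, against 578 to 3146 bp in the others, and it holds the printed promoter. Across the window, 11507 bp were covered in the other 4 sets and not in B6xCAST, and 2512 bp in all 5. The share of 36-base sequences that are unique was 79.1% in the first and 88.6% in the second. Cyp3a25, of the same cluster, was covered for 57.4% in B6xCAST liver, within the 32.9 to 73.8% of the other hybrids. B6xCAST liver had 14 libraries and 233784 hotspots, within the range of the liver sets. Whether reads lost at sequence differences between CAST/EiJ and the reference play a part was not tested.

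**Figure D4:**
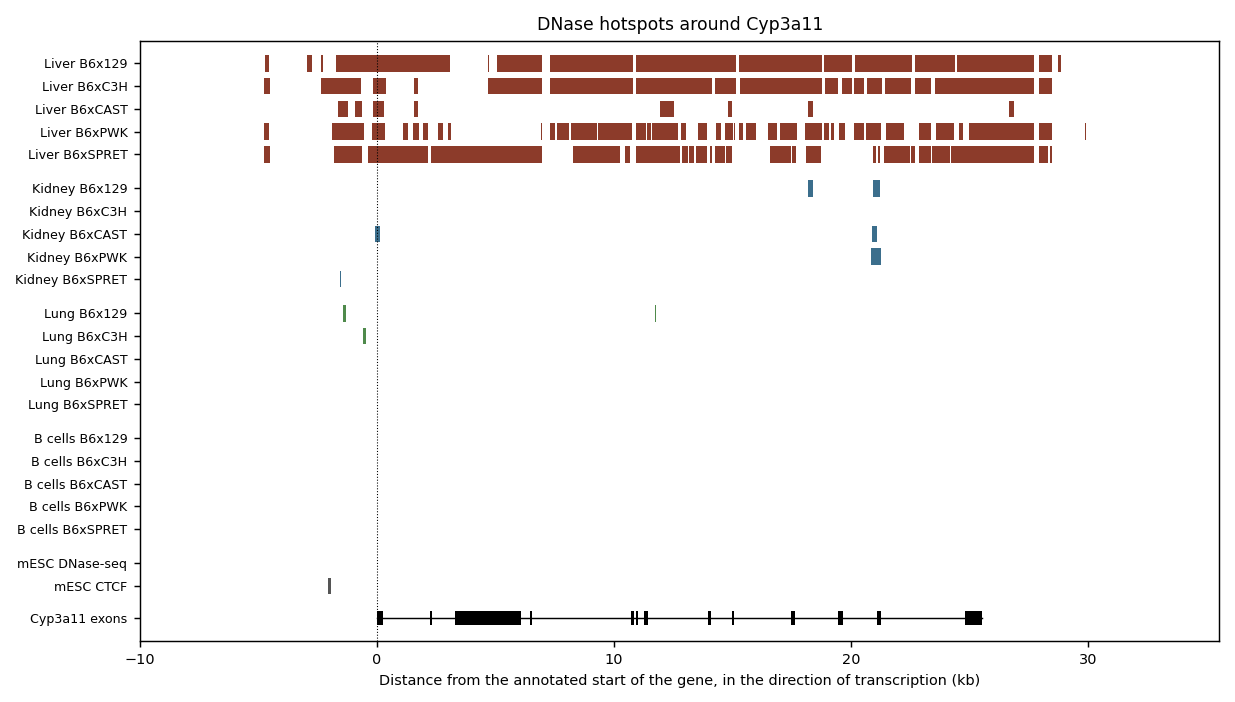
Hotspots around Cyp3a11 by distance from its start, in kb along the direction of transcription. Each row is 1 set and black boxes are exons. Hotspots cover 56.1 to 88.4% of the gene body in 4 liver rows and 5.8% in B6xCAST, which has 8 hotspots in the window, including the start.

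Cyp7a1 was low in B6xPWK liver, 20.1 percentage points below the mean of the other hybrids. This difference was the 15th lowest of all genes in that hybrid. The gap to the next set was 0.285 of the range, smaller than that of Cyp3a11. Cyp2f2 had larger differences from the other hybrids, -21.13 in B6xCAST and -21.06 in B6xSPRET liver. The Cyp7a1 gene body was covered for 10.6% in B6xPWK and for 37.1 to 70.5% elsewhere in liver. The start hotspot was retained, with 617 bp.

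Other genes of these pathways followed liver. Of 90 other P450 genes, 67 were higher in liver (33.9% of all genes were), 8 in kidney (7.26%), 3 in B cells (4.92%) and 1 in lung (1.82%), and 15 were lower in B cells (22.6%). The kidney count was close to its background. By subfamily, 14 of 14 other Cyp2c genes, 8 of 8 other Cyp3a genes and 4 of 6 other Cyp4a genes were higher in liver, with 2 of the 6 Cyp4a genes higher in kidney. The enzymes that feed electrons to P450 were higher in 5 of 6 cases, among them P450 oxidoreductase itself (Por, 28.6% ± 10.8 in liver, SD, n = 5) and cytochrome b5 (Cyb5a, 51.7% ± 12.4). The annotated start of Por had a hotspot in 0 of 5 liver sets but in 5 of 5 kidney and 5 of 5 lung sets, and that of Cyb5a in 1 liver set. Bile acid genes were higher in 14 of 14, such as Cyp27a1 and Cyp7b1 of the acidic pathway (16.6% ± 3.09 and 7.05% ± 1.02). Fatty acid oxidation genes were higher in 11 of 12 and conjugating enzymes in 19 of 20. Of the 20 conjugating enzymes, 9 were called lower in B cells. Median differences of these 4 lists were 12.04 to 14.3 percentage points, against 0.89 over all genes. The lists were drawn up with earlier results of these data known.

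Genes on other chromosomes with the closest profile over the 20 sets were, by Pearson r as a description, Fga (0.997), Ttr (0.996) and Glyat (0.995) for Cyp2e1. For Cyp7a1 they were Cyp2c37 (0.988), Cyp3a25 (0.988) and Tdo2 (0.983), and for Cyp2f2 they were Gc (0.991), Iigp1 (0.986) and Ces1b (0.984). These r values rest on the contrast of liver with the rest, since the 5 sets of a tissue are hybrids of 1 organ and not independent points.

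The RNA tables held few counts, with 283725 to 809337 expected counts a library. The paper lists many times more nonredundant reads for these libraries, and the cause of the gap was not tested. The liver marker Alb had 95 to 767 counts in the 4 liver libraries. Cyp2e1 had 6 to 71 counts in the 4 liver libraries and at most 2 in any of the other 13. Cyp3a11 had 13.6 to 62 counts in liver, 122.5 in all, and 0 elsewhere. Cyp2c29 (1 to 24 counts in liver) and Cyp7a1 (0 to 14 counts) were at 0 elsewhere too. As shares of all counts they were at least 67.1-fold and 29.4-fold higher in liver than the limit of 3 counts over the 13 other libraries. These bounds fell to 37.5-fold without the B6xPWK liver library, which held 24 of 41 Cyp2c29 counts, and to 8.67-fold without the B6xSPRET 1 liver library, which held 14 of 18 Cyp7a1 counts. Liver libraries were spread widely: Cyp7a1 was at 0 in the B6xC3H library.

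Enough counts for a test were found for 2 of the 10 genes, Cyp3a11 and Cyp8b1. This rests on the filter, since 8 members were called in liver with no filter beyond a total above 0 and 6 by DESeq2. Cyp3a11 was higher in liver (log2 fold change 9.62, adjusted p = 4.81e-08, edgeR quasi-likelihood test), as were 21.8% of the genes tested. This fitted fold depends on the prior count, since all other libraries were at 0. Cyp8b1 was called in liver (log2 fold change 1.56, adjusted p = 0.0149) and in lung (2.05, adjusted p = 0.000301, where 29.6% of genes were). It was lower in kidney (-4.45, adjusted p = 1.21e-05; 9.31% of genes). The liver call was lost without the B6xSPRET 1 or the B6xC3H liver library (adjusted p = 0.0894 and 0.0939), with no filter on low counts (0.141) and by limma (0.858).

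The RNA counted as Cyp8b1 was not highest where the start of the gene was open. In CPM (counts scaled to the library total) it came to 88.6 ± 28.1 in lung (SD, n = 4), 44.1 ± 33.1 in B cells (n = 5), 25.2 ± 12.4 in liver (n = 4) and 1.6 ± 2.2 in kidney (n = 4), and all 4 lung libraries lay above all 4 liver libraries, although no lung set had a hotspot at the start. The liver fold is set against the mean of the 3 other tissues on a log scale, to which the low kidney counts belong. Ackr2 had 19 to 65 counts in B cells and 0 to 1 in lung by the same counting. The Cyp8b1 window reaches into Ackr2, and the strand setting of the counting is not given in the sources used here. Whether the counts listed for Cyp8b1 came from that gene was not tested.

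Cyp2f2 had 1 to 8 counts in lung, 2 to 5 in liver, 1 to 6 in kidney and 0 in all B cell libraries. Gm15883, whose exons overlap those of Cyp2f2 on the opposite strand, had 486 to 736 in lung and 51 to 287 in liver, with at most 6 elsewhere. It exceeded Cyp2f2 in all 8 lung and liver libraries. The library kit kept strand, and the strand setting of the counting is not given in the sources used here. The 2 genes therefore cannot be told apart, and the counts of the other members were read with the same setting.

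**Figure D5:**
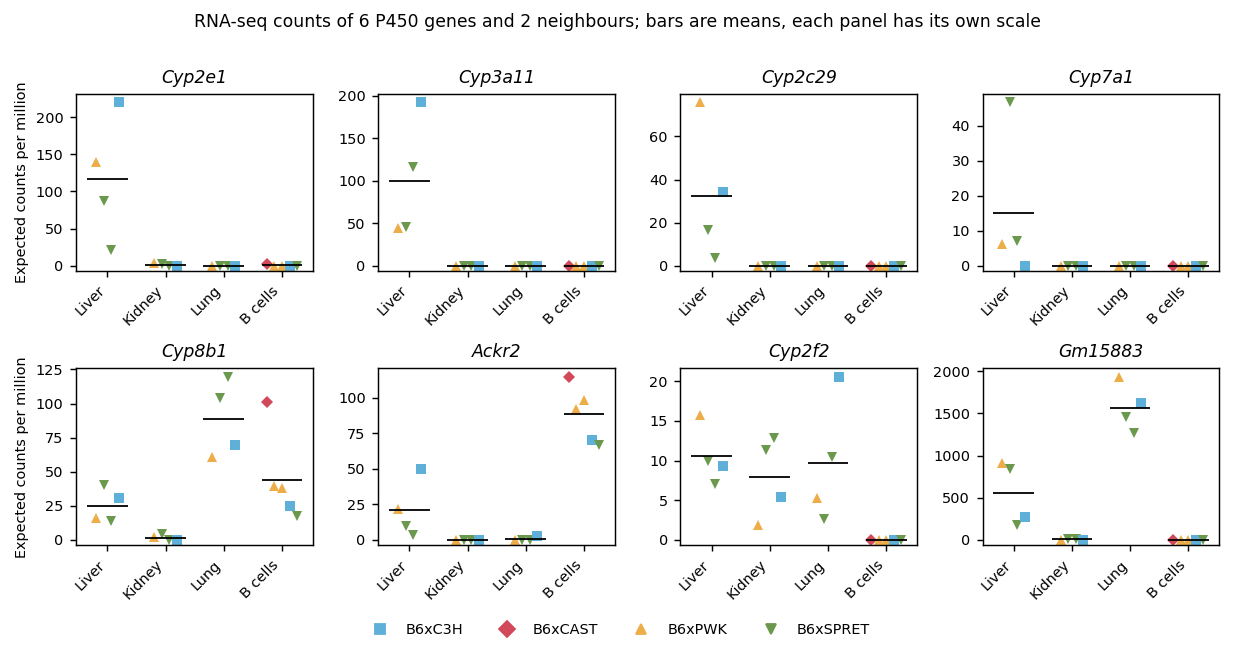
Expected counts scaled to the library total (CPM) in each RNA-seq library for 6 P450 genes and their neighbours Ackr2 and Gm15883. Points are libraries, coloured by hybrid, bars are means, and panels have their own scales. Counts listed for Cyp2e1, Cyp3a11, Cyp2c29 and Cyp7a1 are seen in liver, for Cyp8b1 most in lung, and for Gm15883 in lung and liver. The strand setting of the counting is not given in the sources used here.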

How the data were processed

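The 10 genes, the other gene lists and the motifs were chosen with earlier results of these data known. The other parent of the B6x129 mice was 129S1/SvImJ. The authors trimmed reads with Trimmomatic, aligned them with BWA to mm10 and to a genome of the other parent, kept uniquely mapping reads on the autosomes and chromosome X, flagged duplicates with SAMBLASTER, pooled the libraries of a hybrid and tissue (2 to 14) and called hotspots with hotspot2. The deposited hotspot tables give start, end and the −log10 of the FDR, with a ceiling of 100. The authors deposited RSEM expected counts and TPM per gene, from STAR alignments. Versions are not repeated here, and RSEM settings are not given in the sources used here.

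Windows came from GENCODE vM21 (protein-coding genes, mm10) and promoters from RefSeq. The unit of each test of coverage was the pooled set, with the 5 hybrids as repeats of a tissue, so p-values measure the spread between hybrids. The design allows 15504 arrangements for 1 tissue against 3, 252 for a pair of tissues and 625 for a hybrid within tissues. The test of RNA, after rounding of the expected counts, was the quasi-likelihood test of edgeR 4.0.16 (TMM, filterByExpr, 4479 genes, 17 libraries), with DESeq2 1.42.0 and limma 3.58.1 on log2(TPM + 1) as alternatives. Tests were checked on simulated data. Thresholds were an adjusted p of 0.05. An alternative without B6x129 and B6xC3H was added after seeing the data. Uniqueness counted 36-base sequences on both strands of the genome. Intervals were not computed, since the hotspot tables hold no reads, and the read depth of each set was not used here. Named outside the list were other P450 genes, genes within a window, the first called genes of each list and the 3 closest profiles of 3 genes. The motif search planned for hotspots at the starts was limited to promoters and the 2 lung regions, because liver hotspots can span the gene. Labels gave no replicate number shared by the pooled sets beyond the hybrid, which served as the block.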

Additional observations from a re-analysis of the deposited data

Results flagged for a closer look

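In 4 of 37 groups of 5 sets, 1 set lay apart from the other 4 by more than Dixon's 95% limit, which chance reaches in about 1 in 20 groups. Cyp1a2 was covered for 4.58% in B6xSPRET kidney, below 7.45 to 8.45% in the other kidney sets. Cyp2c29 was covered for 0.69% in B6xCAST lung, above 0 to 0.16% in the others, and Cyp4a14 for 1.01% in B6xC3H lung, where the other 4 were at 0.53%. Those 4 equal values are the 159 bp of a hotspot that the window's edge cut, so their spread of 0 was set by the window and the limit says nothing here. Cyp2f2 was covered for 13.34% in B6x129 lung, above 6.98 to 8.32% in the other lung sets. B6xSPRET kidney had the fewest hotspots of its tissue and B6xCAST lung the most, and their part in these values was not tested.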

How the results depend on the processing

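The number of liver calls was 9 at an FDR of 1%, with the 75000 highest-scoring hotspots, a flank of 2 kb, scaling by genome-wide coverage, the number of hotspots, B cells left out, any hybrid left out, and (added after seeing the data) B6x129 and B6xC3H left out. It was 10, with Cyp4b1, at a flank of 50 kb. Calls in kidney stayed at 0 in those alternatives run for it, all but the last. The hybrid as replicate block also left 9 liver calls (adjusted p = 0.00501). Lung calls rose from 0 to 1, Cyp4b1, with the 75000 highest-scoring hotspots, with scaling and without B cells. The last also called Cyp4a10 (-5.59 percentage points) and Cyp4a14 (-6.88) lower in lung. The 2 lower calls in B cells became 1 at an FDR of 1%, with 75000 hotspots, with a flank of 2 kb, under the replicate block (each time without Cyp4a10) and without any 1 hybrid (1 to 1), 4 with scaling and 5 by number of hotspots. Start counts without 1 hybrid were 9 for liver, 5 to 6 for kidney, 2 for lung and 0 for B cells. With a flank of 2 kb, 96 of the 159 merged regions were left, 9 of the 18 liver-only and 0 of the 2 lung-only, since fewer bases were searched. Without 1 hybrid, regions numbered 153 to 180, liver-only ones 20 to 32 (32 without B6x129) and lung-only ones 2 to 3. RNA calls in liver were 6 with DESeq2, 8 with no filter, 1 with limma, 1 to 3 without 1 library and 2 with the replicate block. In lung they were 2 with DESeq2, no filter or limma, 1 to 2 without 1 library and 1 with the block. The cause of these shifts was not tested.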
